A study of Mus musculus with 2 samples.

Results

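The genes described here encode enzymes that add or remove methyl groups chiefly on histone lysines other than H3K27, with the subunits that work beside them. They were chosen by name, from a list of 40 gene symbols. Of these, 37 were measured on both arrays through 63 features, among 22485 named genes in all. Setd1b, Suv39h1 and Ash1l were not analysed here.

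The study measured how mouse embryonic stem (ES) cells respond to retinoic acid (RA) with and without Utx, the H3K27me3 demethylase encoded by the X-linked gene Kdm6a. One line was a Utx knockout (UtxKO) and the other was wild-type V6.5. How the allele was made, and whether the knockout is 1 clone, is not given in the sources used here. Untreated cells of both lines were kept on gelatin with leukaemia inhibitory factor (LIF), a cytokine that blocks their differentiation. Treated cells of both lines had LIF removed and 100 nM RA added for 48 h, so the effects of the 2 changes cannot be told apart, and the RA response here means both.

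Treated and untreated RNA of a line shared 1 two-colour Agilent array, 1 array for UtxKO and 1 for V6.5. Each gene therefore has 2 values, for each line the log2 of the RA-treated over the untreated signal, and no replicate. The direction of the ratio is the likely one from the dyes in the labels. All 4 measured RA target genes had high ratios under this reading. Rarb, a retinoic acid receptor, had 2.40 in UtxKO and 2.38 in V6.5, and Cyp26a1, an RA-degrading enzyme, had 4.27 in UtxKO and 3.54 in V6.5. The dyes were not swapped between the arrays, so a dye bias at a gene would have the same sign in both lines. Only ratios were used, so the presence of ES cell markers as levels was not checked. In bulk RNA, fewer cells of a type and less RNA per cell cannot be told apart.

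Histone lysine methylation is written by methyltransferases and erased by demethylases, and each enzyme favours certain lysines. Methylation of H3K4 and H3K36 goes with active genes, and that of H3K9 with silent chromatin. The H3K4 enzymes of the Kmt2 and Setd1 families work in complexes around a shared core of Wdr5, Rbbp5, Ash2l and Dpy30. Utx belongs to this network, because it is a subunit of the complexes built on Kmt2c and Kmt2d, together with Ncoa6, Paxip1 and Pagr1a. In ES cells several of these factors are known to support self-renewal or the change of gene programme during differentiation.

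Of the 37 members, 3 rose and 3 fell with RA in the fit shared by both lines. Those that rose were the H3K4 methyltransferase Setd7, the Utx complex subunit Pagr1a and the demethylase Kdm4d. Those that fell were the core subunit Dpy30, the H3K9 methyltransferase Ehmt2 and the H3K9 demethylase Phf8. The fit was limma's moderated test, called at an adjusted p under 0.05, with the p-values of all 22485 genes adjusted by Benjamini-Hochberg. It treats the 2 lines as 2 samples of a common response. It tests whether the mean of the 2 ratios departs from no change. Its error comes from the gap between these 2 arrays, moderated by the gaps of all genes. No line has replicate cultures, so variation between cultures cannot be told apart from a difference between the lines in that gap.

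These counts came to 8.11% of the members up and 8.11% down, against 8.93% of all genes up and 7.93% down. In either direction they came to 16.2%, against 16.9% of all genes, so the members were called about as often as genes at large. At an unadjusted p under 0.05, 6 members were higher and 8 lower, or 16.2% and 21.6%, against 16.8% and 17.9% of all genes. Every ratio of a member stayed within 2-fold. Ratios ran from -0.67 to 0.74 in UtxKO and from -0.70 to 0.59 in V6.5, on the log2 scale, whereas those of all genes ran from -3.54 to 5.86 in UtxKO and from -3.71 to 5.10 in V6.5. The median ratio of the members was -0.09 in UtxKO and -0.05 in V6.5, and that of all genes was -0.02 on each array.

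The sequences of the 6 genes that passed are shown because they are the members called in the shared fit. Each line gives the 250 bases before the transcription start listed by RefSeq in build GRCm38.p6, written 5′ to 3′ on the strand of the gene. Where several starts are listed, as for Dpy30 with 4 and Ehmt2 with 2, the most upstream one with an observed over expected CpG ratio of at least 0.6 is shown. Capitals mark matches to AGGTCA (the nuclear receptor half-site), TGACGTCA (the cAMP response element), CGCATGCG (the core of the NRF1 palindrome), CACGTG (an E-box) and CCAAT, on either strand.
Setd7 upstream, chr3:51560824-51561073, minus strand: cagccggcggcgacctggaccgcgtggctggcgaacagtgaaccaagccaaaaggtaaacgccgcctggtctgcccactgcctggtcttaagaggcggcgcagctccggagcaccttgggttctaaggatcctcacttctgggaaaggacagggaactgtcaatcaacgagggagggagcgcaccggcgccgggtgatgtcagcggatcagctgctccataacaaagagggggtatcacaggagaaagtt
Pagr1a upstream, chr7:127017353-127017602, minus strand: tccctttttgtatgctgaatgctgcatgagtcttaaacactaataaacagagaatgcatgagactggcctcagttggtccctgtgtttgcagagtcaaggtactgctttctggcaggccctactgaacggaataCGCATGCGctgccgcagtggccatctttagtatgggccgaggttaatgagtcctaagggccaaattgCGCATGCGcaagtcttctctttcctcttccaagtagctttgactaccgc
Kdm4d upstream, chr9:14500483-14500732, minus strand: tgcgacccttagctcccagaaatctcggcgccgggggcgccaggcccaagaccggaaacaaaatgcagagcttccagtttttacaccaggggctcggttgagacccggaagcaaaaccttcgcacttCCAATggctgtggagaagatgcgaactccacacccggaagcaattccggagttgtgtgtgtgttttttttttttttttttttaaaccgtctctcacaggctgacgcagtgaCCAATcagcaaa
Dpy30 upstream, chr17:74316434-74316683, minus strand: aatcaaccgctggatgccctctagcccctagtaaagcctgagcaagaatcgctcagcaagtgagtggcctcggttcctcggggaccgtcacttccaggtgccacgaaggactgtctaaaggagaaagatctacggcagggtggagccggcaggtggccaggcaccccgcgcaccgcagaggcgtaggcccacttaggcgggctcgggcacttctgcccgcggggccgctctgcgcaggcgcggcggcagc
Ehmt2 upstream, chr17:34898224-34898473, plus strand: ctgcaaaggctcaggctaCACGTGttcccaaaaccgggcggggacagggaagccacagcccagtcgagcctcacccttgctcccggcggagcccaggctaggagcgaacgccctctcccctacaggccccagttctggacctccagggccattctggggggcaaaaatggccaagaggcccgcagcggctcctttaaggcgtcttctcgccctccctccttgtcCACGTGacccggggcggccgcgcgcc
Phf8 upstream, chrX:151520422-151520671, plus strand: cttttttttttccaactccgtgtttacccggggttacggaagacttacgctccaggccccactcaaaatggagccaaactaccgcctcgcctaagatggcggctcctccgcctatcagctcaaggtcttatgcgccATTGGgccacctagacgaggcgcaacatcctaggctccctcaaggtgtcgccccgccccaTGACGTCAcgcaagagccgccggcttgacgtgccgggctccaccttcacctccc

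These windows gave no match to the half-site AGGTCA, to which RA receptors bind as repeats. The half-site was found in 4 of the 36 listed upstream windows of 29 measured members, which is 11.1%, against 14% of the 32851 windows in the table. A direct repeat of it with 5 bases between was in 0 member windows and in 3 of all windows. Among the genes shown, Pagr1a had the NRF1 core at 2 places and Phf8 had the cAMP response element. Each of these motifs is held by 2 of the 36 member windows, or 5.56%, and by 1.55% of all windows. Ehmt2 had the E-box near both ends of its window, a motif present in 8.33% of member windows and 6.02% of all windows. CCAAT, which overlaps no other match here, stood in the windows of Kdm4d and Phf8. It was in 25% of member windows and 33.8% of all windows. Differences between these shares were not tested. A match is a run of letters and not evidence of binding, and its absence concerns these windows alone. The motifs were chosen after the sequences were read.

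Most listed windows of the members were CpG-rich. An observed over expected CpG ratio of at least 0.6 was found in 30 of the 36 windows, or 83.3%, against 34% of all windows and 44.7% of the 21263 windows of protein-coding genes. Among the genes shown, the ratio was 0.896 for Phf8, 0.843 for Kdm4d, 0.755 for Setd7 and 0.529 for Pagr1a, each with 1 listed start. The windows of Dpy30 and Ehmt2 were picked by this same ratio, so their values, 0.772 and 0.64, were above 0.6 by that choice and support nothing.

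**Figure D1:**
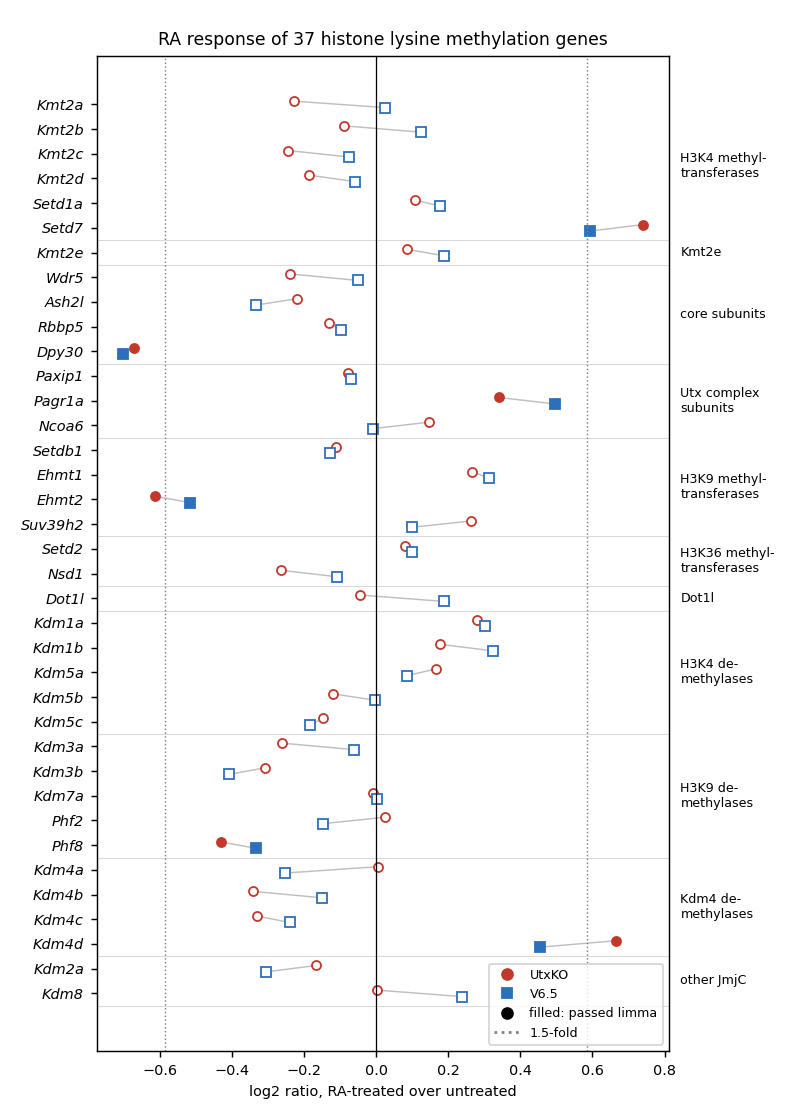
Log2 ratio (RA-treated over untreated) (x axis) of each of the 37 measured members, grouped by role, with 1 point per line and array (circles UtxKO, squares V6.5). Filled points mark the 6 members that passed limma, and dotted lines mark 1.5-fold. Setd7 is at the right and Dpy30 at the left in both lines, and most members lie inside the dotted lines.

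Among the H3K4 methyltransferases, Setd7 was the member that passed. Setd7 places a single methyl group on H3K4 and also methylates many proteins that are not histones. Its ratio was 0.74 in UtxKO and 0.59 in V6.5, or 1.67-fold and 1.51-fold higher after RA. The mean of 0.67 ± 0.08 (limma's moderated SE, n = 2 arrays) had an adjusted p of 0.0206 in limma. On each array this was the highest ratio of any member.

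None of the Kmt2 enzymes passed. Kmt2a, which maintains Hox gene expression, had -0.23 in UtxKO and 0.02 in V6.5. Its relative Kmt2b, which acts at many CpG-island promoters, had -0.09 in UtxKO and 0.13 in V6.5. The 2 enhancer H3K4 monomethyltransferases that share complexes with Utx were below 0 in both lines. Kmt2c had -0.24 in UtxKO and -0.08 in V6.5, and Kmt2d had -0.18 in UtxKO and -0.06 in V6.5. Setd1a, which provides much of the H3K4me3 in ES cells, had 0.11 in UtxKO and 0.18 in V6.5. Kmt2e, a family member without known methyltransferase activity, had 0.08 in UtxKO and 0.19 in V6.5. None of these 6 genes passed in limma, with adjusted p between 0.267 for Setd1a and 0.906 for Kmt2b.

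The shared core subunits were all below 0 on both arrays, and 1 of the 4 passed. Dpy30, the small subunit that binds Ash2l and raises H3K4 methylation by the complexes, fell by 1.59-fold in UtxKO and 1.63-fold in V6.5. Its mean log2 ratio was -0.69 ± 0.07 (SE, n = 2 arrays), with an adjusted p of 0.0168 in limma. Dpy30 is measured by 2 features annotated to different RefSeq transcripts. They gave -0.64 and -0.70 in UtxKO and -0.73 and -0.67 in V6.5, so all 4 values lay close together. Ash2l, which helps to activate the methyltransferase, had -0.22 in UtxKO and -0.33 in V6.5 without passing (adjusted p of 0.0911 in limma). Wdr5, the scaffold that binds the enzyme, had -0.24 in UtxKO and -0.05 in V6.5. Rbbp5, another scaffold subunit, had -0.13 in UtxKO and -0.10 in V6.5.

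The 3 subunits found with Utx in the Kmt2c and Kmt2d complexes did not move alike. Pagr1a, which binds Paxip1, had 0.34 in UtxKO and 0.49 in V6.5, or 1.27-fold and 1.41-fold higher. Its mean was 0.42 ± 0.08 (SE, n = 2 arrays), and its adjusted p of 0.046 in limma lay close to the threshold. Paxip1, a protein with BRCT domains, had -0.08 in UtxKO and -0.07 in V6.5. Ncoa6, a coactivator of nuclear receptors, had 0.15 in UtxKO and -0.01 in V6.5. Neither Paxip1 nor Ncoa6 passed in limma (adjusted p of 0.532 and 0.605). Kdm6a itself, measured by 1 feature, had -0.16 in UtxKO and -0.39 in V6.5, a ratio between conditions that does not check the knockout.

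Among the H3K9 methyltransferases, the partners Ehmt2 and Ehmt1 lay on opposite sides of 0. They encode G9a and GLP, which form a dimer that mono- and dimethylates H3K9. Ehmt2 fell by 1.53-fold in UtxKO and 1.43-fold in V6.5, with a mean log2 ratio of -0.56 ± 0.08 (SE, n = 2 arrays) and an adjusted p of 0.0243 in limma. Ehmt1 had 0.26 in UtxKO and 0.31 in V6.5 and did not pass (adjusted p of 0.0741 in limma). Its 2 features were both above 0 on both arrays, with 0.42 and 0.11 in UtxKO and 0.45 and 0.17 in V6.5. The difference between the partners was not tested, and Ehmt2 rests on 1 feature.

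The other H3K9 methyltransferases did not pass. Setdb1, which trimethylates H3K9 at endogenous retroviruses, had -0.11 in UtxKO and -0.13 in V6.5. Suv39h2, an enzyme of pericentromeric heterochromatin, had 0.26 in UtxKO and 0.10 in V6.5, but its 2 features did not agree. One gave 0.55 in UtxKO and 0.59 in V6.5, and the other gave -0.03 in UtxKO and -0.40 in V6.5. The SD between these features, 0.409 in UtxKO and 0.699 in V6.5, was the widest of any member, so the mean of this gene is uncertain.

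The enzymes for H3K36 and H3K79 did not pass. Setd2, which trimethylates H3K36 in transcribed genes, had 0.08 in UtxKO and 0.10 in V6.5. Its 10 features had an SD of 0.0741 in UtxKO and 0.0755 in V6.5. Nsd1, which dimethylates H3K36, had -0.26 in UtxKO and -0.11 in V6.5. Its 2 features differed, with -0.45 and -0.07 in UtxKO and -0.30 and 0.08 in V6.5. Dot1l, the H3K79 methyltransferase, had -0.04 in UtxKO and 0.19 in V6.5. Adjusted p in limma was 0.45 for Setd2, 0.207 for Nsd1 and 0.637 for Dot1l.

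None of the 5 H3K4 demethylases passed in limma. At an unadjusted p under 0.05, 2 of the 5 were higher and 0 lower, against 16.8% and 17.9% of all genes. For so few genes the difference in share was not tested. Kdm1a, the demethylase LSD1 that works with Rcor1, had 0.28 in UtxKO and 0.30 in V6.5, with an adjusted p of 0.0716 in limma. Kdm1b, its relative needed for maternal imprints in oocytes, had 0.18 in UtxKO and 0.32 in V6.5 (adjusted p of 0.118 in limma). Of the Kdm5 enzymes, which remove H3K4me3, Kdm5a had 0.16 in UtxKO and 0.09 in V6.5. Kdm5b had -0.12 in UtxKO and -0.00 in V6.5, and the X-linked Kdm5c had -0.15 in UtxKO and -0.18 in V6.5. In both genes the 2 features differed. Those of Kdm5b gave -0.02 and -0.22 in UtxKO and 0.14 and -0.14 in V6.5. Those of Kdm5c gave 0.00 and -0.30 in UtxKO and 0.03 and -0.40 in V6.5.

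Of the 5 H3K9 demethylases outside the Kdm4 family, Phf8 fell. Phf8 is an X-linked enzyme that binds H3K4me3 and removes H3K9me2. Its mean log2 ratio was -0.38 ± 0.08 (SE, n = 2 arrays), with -0.43 in UtxKO and -0.33 in V6.5 and an adjusted p of 0.048 in limma. Its 3 features gave -0.59, -0.39 and -0.31 in UtxKO and -0.53, -0.16 and -0.31 in V6.5, all below 0. The call was lost when the features were summarised by their median (adjusted p of 0.0544), when the arrays were centred on the median gene (0.0524) and when each feature had to pass on its own (0.135 for the weakest feature).

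Kdm3b, which removes H3K9me1 and H3K9me2, had -0.31 in UtxKO and -0.41 in V6.5 and came close to the threshold without passing (adjusted p of 0.0537 in limma). Its 2 features gave -0.29 and -0.33 in UtxKO and -0.19 and -0.63 in V6.5. The related Kdm3a, a target of hypoxia signalling, had -0.26 in UtxKO and -0.06 in V6.5. Kdm7a, which acts on H3K9 and H3K27, had -0.01 in UtxKO and 0.00 in V6.5, and Phf2 had 0.03 in UtxKO and -0.15 in V6.5.

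The Kdm4 family removes methyl groups from H3K9, and Kdm4a, Kdm4b and Kdm4c also do so from H3K36. Kdm4d, a smaller enzyme that lacks the PHD and Tudor domains of those 3, rose. Its ratio was 0.66 in UtxKO and 0.45 in V6.5, or 1.58-fold and 1.37-fold higher after RA. The mean was 0.56 ± 0.09 (SE, n = 2 arrays), with an adjusted p of 0.0321 in limma. The other family members did not pass. Kdm4b had -0.34 in UtxKO and -0.15 in V6.5 (adjusted p of 0.14), and Kdm4c had -0.33 in UtxKO and -0.24 in V6.5 (adjusted p of 0.0815 in limma). Kdm4a had 0.01 in UtxKO and -0.25 in V6.5, and the 2 features behind it are annotated to different RefSeq transcripts. They gave 0.02 and -0.01 in UtxKO and -0.08 and -0.43 in V6.5.

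Kdm2a and Kdm8 complete the demethylases. Kdm2a, a CpG-binding H3K36 demethylase, had -0.17 in UtxKO and -0.30 in V6.5 (adjusted p of 0.131 in limma). Kdm8, a JmjC protein with a role in cell cycle control, had 0.00 in UtxKO and 0.24 in V6.5 (adjusted p of 0.435 in limma). By class, 2 of 13 methyltransferases, 2 of 16 demethylases and 2 of 7 complex subunits passed, 1 in each direction in each class. The shares were 15.4%, 12.5% and 28.6%, against 16.9% of all genes in either direction. Differences between these small classes were not tested. Kmt2e belongs to none of these classes and did not pass.

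**Figure D2:**
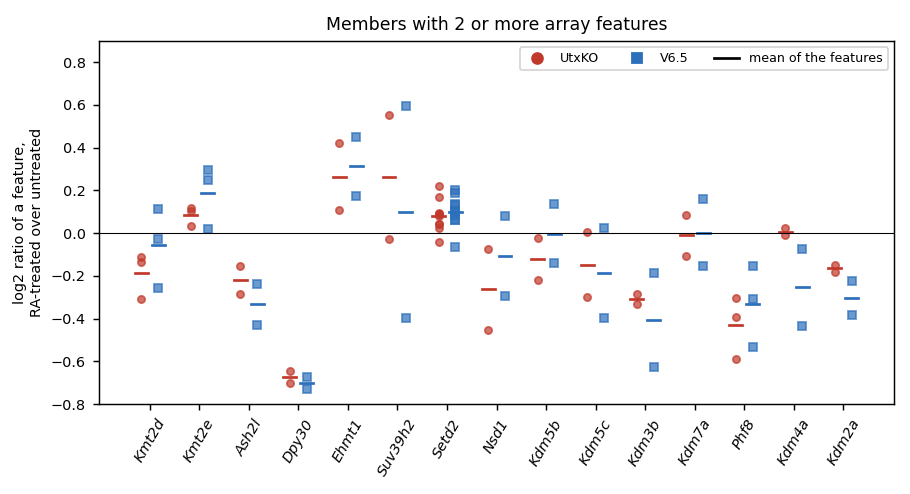
Log2 ratio (RA-treated over untreated) (y axis) of each array feature, for the 15 members with 2 or more features (circles UtxKO, squares V6.5, short lines the means). The features of Dpy30 lie together near -0.7, those of Setd2 lie together near 0.1, and those of Suv39h2 lie far apart.

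Features of a member gave a measure of the spread within an array. They are not replicates of a condition. Among the 15 members with 2 or more features, the median SD between features was 0.106 in UtxKO and 0.196 in V6.5. Over 5751 genes with 2 to 9 features it was 0.139 in UtxKO and 0.142 in V6.5. Setd2, with 10 features and a small SD, counts among the 15 members though it lies outside that range. In 7 of the 15 members every feature had 1 sign on both arrays, and of all 6138 genes with 2 or more features this held for 42%. These 7 were Ash2l, Dpy30, Ehmt1, Kdm2a, Kdm3b, Kmt2e and Phf8. The other 22 members, with Setd7, Pagr1a, Ehmt2 and Kdm4d among them, rest on 1 feature and have no such check.

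Past 1.5-fold, 2 members were higher and 2 lower in UtxKO, and 1 was higher and 1 lower in V6.5. The genes were Setd7 and Kdm4d, higher, and Dpy30 and Ehmt2, lower, in UtxKO, and Setd7 and Dpy30 in V6.5. The same bound was passed upward by 7.28% of all genes and downward by 5.06% in UtxKO, and by 6.69% and 5.36% in V6.5. Setd7 stood at the 94.9th percentile of all genes in UtxKO and the 93.5th in V6.5. Dpy30 stood at the 3.86th percentile in UtxKO and the 3.55th in V6.5.

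**Figure D3:**
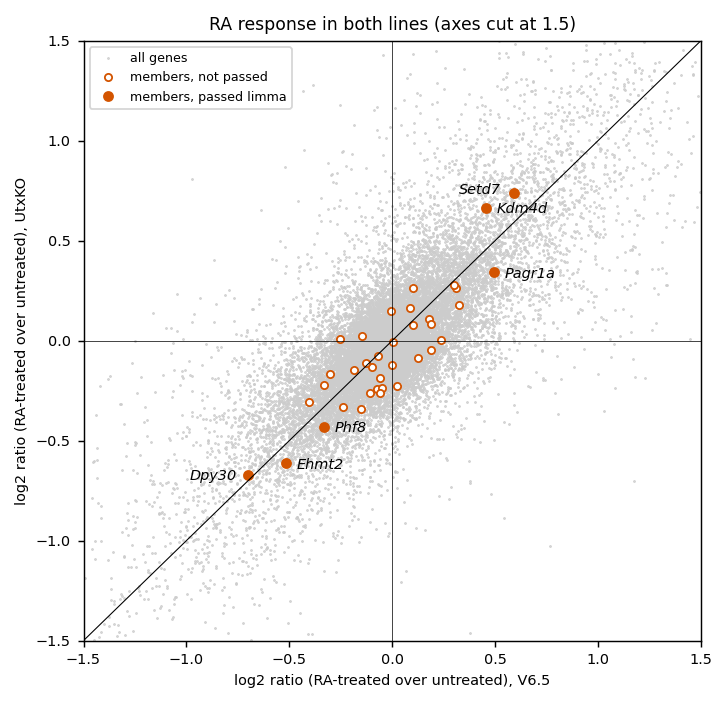
Log2 ratio (RA-treated over untreated) in UtxKO (y axis) against V6.5 (x axis), with 1 point per gene, grey for all genes and orange for members (filled where limma passed). The 6 filled members lie near the diagonal. The axes end at 1.5, which leaves out 533 of 22485 genes and no member.

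Between the lines, the RA response of a typical member differed about as much as that of a typical gene. The median absolute difference on the log2 scale was 0.127 over the members and 0.129 over all genes. With 1 array per line this difference has no test. No member differed by 1.5-fold or more in either direction, while among all genes the UtxKO ratio exceeded that of V6.5 by this much in 2.5% and fell short of it in 1.88%. The differences of the members, UtxKO minus V6.5, ran from -0.25 for Kmt2a to 0.26 for Kdm4a on the log2 scale. A difference at least as large as that of Kdm4a was seen in 21.7% of all genes, and one at least as large as that of Kmt2a in 22.8%. The SD of the differences was 0.141 over the members and 0.273 over all genes.

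The UtxKO ratio was below the V6.5 ratio in 24 of 37 members, or 64.9%, against 49.3% of all genes. The share was 71% of 31 methyltransferases and demethylases that are not members, and 63.3% of 30 cofactors of the members. It was thus not particular to the members. All 4 Kmt2 methyltransferases were among the 24 members, with differences of -0.25 for Kmt2a, -0.21 for Kmt2b, -0.17 for Kmt2c and -0.13 for Kmt2d. The 3 features of Kmt2d did not share this direction. In UtxKO they gave -0.14, -0.31 and -0.11, and in V6.5 0.11, -0.03 and -0.26, so 2 features were lower in UtxKO and 1 was higher. Kdm8 (-0.24), Dot1l (-0.23) and Kdm3a (-0.20) also lay at this end. At the other end after Kdm4a stood Kdm4d (0.21), Phf2 (0.17) and Suv39h2 (0.16).

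Across the 37 members, the UtxKO and V6.5 ratios had a Pearson correlation of 0.881 and a Spearman correlation of 0.813. Over all 22485 genes these were 0.837 and 0.733. These describe points that share arrays, dyes and centring, and genes are not independent. Of the members 12 were above 0 and 18 below 0 on both arrays, and 7 had opposite signs. Over all genes, 34.3% were above 0 and 41.2% below 0 on both arrays, and 24.4% had opposite signs.

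**Figure D4:**
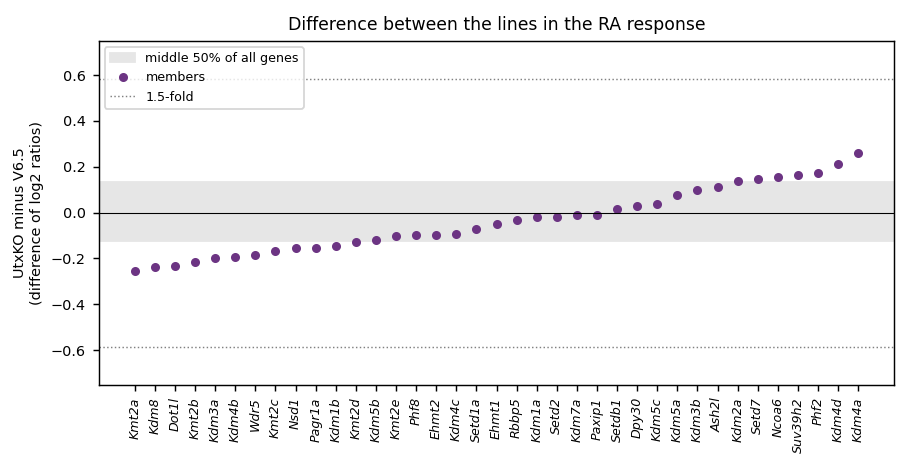
Difference of the log2 ratios, UtxKO minus V6.5 (y axis), for each of the 37 members in rising order. The grey band is the middle 50% of all genes, from -0.12 to 0.13, and the dotted lines mark 1.5-fold. All members lie inside the dotted lines, with Kmt2a lowest and Kdm4a highest.

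In the wider set of lysine methylation genes, 3 of 31 measured methyltransferases and demethylases that are not members rose and 1 fell. These shares, 9.68% and 3.23%, stand beside the 8.11% of the members in each direction, and their difference was not tested. Over all genes, 8.93% rose and 7.93% fell. At an unadjusted p under 0.05, 7 of the 31 were higher and 6 lower, or 22.6% and 19.4%. The same bound was met by 16.8% and 17.9% of all genes. Smyd4 had 0.63 in UtxKO and 0.58 in V6.5 and an adjusted p of 0.0206 in limma. Kdm2b, an H3K36 demethylase that brings a Polycomb complex to CpG islands, had 0.42 in UtxKO and 0.37 in V6.5, and Setd5 had 0.36 in UtxKO and 0.37 in V6.5. Prdm16, a zinc finger factor with a PR domain, fell, with -1.05 in UtxKO and -0.57 in V6.5 (adjusted p of 0.0364 in limma).

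Of 30 cofactors of the members, 0 rose and 2 fell in limma, 6.67%, against 8.93% of all genes up and 7.93% down. At an unadjusted p under 0.05, 5 were higher and 5 lower, 16.7% each, against 16.8% and 17.9% of all genes. Aff1, of the elongation complexes that also hold Dot1l partners, fell to a mean of -0.69 ± 0.07, with -0.67 in UtxKO and -0.71 in V6.5. Hdac2, a deacetylase that works with Kdm1a and Rcor1, fell to -0.43 ± 0.07 over 10 features (SE, n = 2 arrays). Among the cofactors and enzymes that did not pass, the widest gaps between the lines were those of Smyd2, with 0.26 in UtxKO and 0.95 in V6.5, and Mllt3, a partner of Dot1l, with 0.48 in UtxKO and -0.07 in V6.5.

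**Figure D5:**
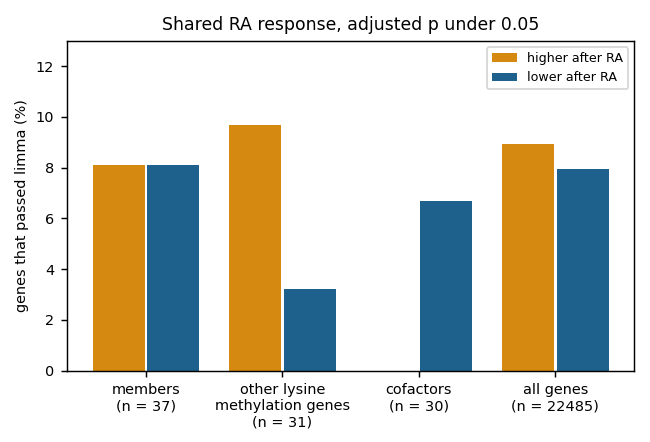
Share of genes that passed limma in the shared RA response (y axis, %), higher (orange) and lower (blue) after RA. Members had 8.11% in each direction, against 8.93% higher and 7.93% lower for all genes.

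Cell type markers moved with RA on the same arrays. Of 12 fibroblast markers, listed because ES cells are often grown on feeders, 0 rose and 8 fell, with a median ratio of -1.19 in UtxKO and -1.09 in V6.5. The rest, Dcn, Lum, Twist1 and Pdgfrb, did not pass. Over all genes, 8.93% rose and 7.93% fell. At an unadjusted p under 0.05 the fibroblast counts were the same. Of 10 pluripotency markers 4 fell and 0 rose (medians -0.51 in UtxKO and -0.60 in V6.5), and 8 were lower and 0 higher at an unadjusted p under 0.05. Among 7 markers of 2-cell-like cells, 5 rose and 0 fell (medians 1.71 in UtxKO and 2.86 in V6.5), and 5 were higher and 2 lower at an unadjusted p under 0.05. The part of changes in cell make-up in the ratios of the 6 members that passed was not tested.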

How the data were processed

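Total RNA of UtxKO and V6.5 ES cells was measured on 2 two-colour Agilent arrays, untreated RNA in Cy3 and RA-treated RNA in Cy5 per the labels. The authors deposited a log2 ratio for each of 44397 features on each array. The submitters' processing notes name limma, with no version and no step. Background correction and normalization are not stated in them. The deposited log2 columns had a mean of 0, and the log base was read from their range. Signal over background is unknown, and having only 2 arrays limits precision.

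Gene names came from the platform annotation: of the features, 33026 had 1 symbol, 0 several and 11371 none. Of 22485 genes, 21964 matched RefSeq by Entrez number and 0 had another symbol there. Features of a gene were averaged. The shared response was an intercept fitted over both arrays with lmFit and eBayes (limma 3.58.1, R 4.3.3), two-sided, with 1 residual and 2.98 prior degrees of freedom. Ratios of a line and differences between lines had no test, and counts past 1.5-fold were set beside those of all genes. Python 3.11.15 with pandas 2.3.3, numpy 2.4.6 and matplotlib 3.10.9 served for the rest. Alternatives varied the feature summary, centring, scaling, genes tested, eBayes setting, null hypothesis, unit of the fit and fold. All measured members are named. Of other genes, those that passed and those with the widest gap between lines could be named. The rule for the members uses no measured value, but members and lists were chosen with earlier results of these data known.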

Additional observations from a re-analysis of the deposited data

Results flagged for a closer look

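In 7 members the ratio had opposite signs in the 2 lines, which is what drew attention to them. The difference was not tested, since each line has 1 array, and 24.4% of all genes had opposite signs too. The differences, UtxKO minus V6.5 on the log2 scale, were -0.25 for Kmt2a, -0.21 for Kmt2b, -0.23 for Dot1l, -0.012 for Kdm7a, 0.15 for Ncoa6, 0.17 for Phf2 and 0.26 for Kdm4a. The single ratios behind them ran from -0.25 to 0.19. For Kdm4a, 1 of its 2 features carried most of the difference, with -0.01 in UtxKO and -0.43 in V6.5, while the other gave 0.02 in UtxKO and -0.08 in V6.5. The 2 features of Kdm7a gave -0.11 and 0.09 in UtxKO and -0.15 and 0.16 in V6.5. Neither changed sign between the lines, and only their mean did.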

How the results depend on the processing

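The counts of 3 members up and 3 down were the same with both arrays scaled to 1 spread, with quantile normalization and with robust eBayes. The count down was 2 with median features, with median centring and with the fit over features, each time through the loss of Phf8. Against 1.5-fold with treat, 0 members rose and 0 fell, and of all 22485 genes only 196 rose and 97 fell. With only genes of at least 2 features, 15 members were left, of which 0 rose and 3 fell, Kdm3b now among them (adjusted p of 0.0416 in limma). Of all 6138 genes in that setting, 601 rose and 656 fell. That setting left 0 members past 1.5-fold up in either line, and 1 down in UtxKO and 1 down in V6.5. Past 2-fold, 0 members were higher and 0 lower in either line. For neither of these settings was the share of all genes past the fold computed. The difference between the lines kept 0 members past 1.5-fold in each setting run. Kdm7a changed sign with median centring, to 0.016. Of the settings that included them, Setd7, Dpy30, Pagr1a, Ehmt2 and Kdm4d lost their calls with treat alone. Phf8 kept its call in 4 of 8, treat being among the 4 that lost it. Setd7, Pagr1a, Ehmt2 and Kdm4d have 1 feature each, so median features and the fit over features used the same value for them. Those settings, which removed the call of Phf8, gave no check of these single-feature genes. No scaling moved the median of all genes by over 0.1. Leaving out 1 array leaves no residual degree of freedom, so it gives the single ratios in the text and no test. No paired analysis was possible because each line has 1 array and the labels give no replicate numbers. One array per line, the unknown signal behind each ratio and the lack of a dye swap limit all values.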
